A study of Mus musculus with 15 samples.

Results

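The 5 keratins Krt7, Krt8, Krt18, Krt19 and Krt42 and the 5 claudins Cldn3, Cldn4, Cldn6, Cldn7 and Cldn9 were followed in mouse embryonic stem cells that had lost the cohesin subunit STAG1, STAG2 or most of both. They are the 10 rows of these symbols among 23412 genes counted by polyA RNA-seq, chosen by name, with earlier results of these data known. All 10 had enough counts to be tested, among 14508 genes tested. The cells were v6.5, a male mouse embryonic stem cell line, grown on gelatin, and the 15 libraries formed 5 conditions of 3 replicates. WT siGLO was wild type with the control siRNA siGLO, and Stag1-KO siGLO and Stag2-KO siGLO carried the same control siRNA in cells knocked out for Stag1 or Stag2. WT siStag1 and Stag2-KO siStag1 received an siRNA against Stag1 in wild-type or Stag2 knockout cells. Each siRNA was given at 50 nM and the RNA was collected after 48 hours. Each knockout was a single CRISPR clone, so its 3 replicates were cultures of that clone, and the clone and the genotype cannot be told apart. All p-values therefore measure the spread between cultures.

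Keratins are the intermediate filament proteins of epithelial cells. A type I keratin pairs with a type II keratin to build a filament, and Krt8 (type II) with Krt18 (type I) is the pair that simple epithelia and the first epithelium of the embryo, the trophectoderm, form early. Krt7 is another type II keratin of simple epithelia, Krt19 and Krt42 are type I keratins, and pluripotent cells in culture hold low levels of some of them. Claudins are membrane proteins with 4 spans that seal the tight junction between neighbouring epithelial cells. Cldn3, Cldn4, Cldn6, Cldn7 and Cldn9 are all found in epithelia, and Cldn6 is best known from embryonic epithelium and from pluripotent cells.

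Most of the genes lie near another member in the mm10 annotation. On chromosome 15, Krt8 (101996698 to 102004482, minus strand) and Krt18 (102028180 to 102032027, plus strand) are separated by 23697 bp, and Krt7 (101411043 to 101430313, plus strand) lies 566384 bp from Krt8. On chromosome 11, Krt19 (100140810 to 100148665, minus strand) and Krt42 (100262882 to 100269871, minus strand) are 114216 bp apart. Cldn7 (69964779 to 69967885, plus strand) lies far from both on the same chromosome. Cldn4 (134945119 to 134946934, minus strand) and Cldn3 (134986214 to 134987472, plus strand) are 39279 bp apart on chromosome 5. Cldn6 (23679249 to 23682446, plus strand) and Cldn9 (23682584 to 23684026, minus strand) end 137 bp from each other on chromosome 17.

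The promoter sequences below belong to the genes on which the results turn, that is Krt7 (the largest rise), the filament pair Krt8 and Krt18, Krt42 (the largest fall), and Cldn4 and Cldn6 (opposite changes in Stag2-KO siStag1). They are RefSeq sequences of build GRCm38.p6, each holding 250 bases before the annotated start and 30 from it on, read 5′ to 3′ on the strand of the gene. A RefSeq start can lie apart from the start in the annotation used for the positions above. RefSeq promoters were found for 8 of the 10 genes. Capitals mark matches to 5 short motifs on either strand. These were the TATA box, spelled TATAAA, and the GC box, spelled GGGCGG. The AP-1 motif was spelled TGANTCA, the E-box searched was spelled CAGGTG, and the last was CCAAT, the core of the box of that name.
Krt7 (chr15:101412153-101412432, plus strand): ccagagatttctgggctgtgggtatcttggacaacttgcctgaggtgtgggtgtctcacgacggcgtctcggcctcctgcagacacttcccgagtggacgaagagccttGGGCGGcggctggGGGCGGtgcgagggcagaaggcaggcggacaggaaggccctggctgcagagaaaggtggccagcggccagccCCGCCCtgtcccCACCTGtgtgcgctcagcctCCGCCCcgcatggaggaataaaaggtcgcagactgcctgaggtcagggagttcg
Krt8 (chr15:102004313-102004592, minus strand): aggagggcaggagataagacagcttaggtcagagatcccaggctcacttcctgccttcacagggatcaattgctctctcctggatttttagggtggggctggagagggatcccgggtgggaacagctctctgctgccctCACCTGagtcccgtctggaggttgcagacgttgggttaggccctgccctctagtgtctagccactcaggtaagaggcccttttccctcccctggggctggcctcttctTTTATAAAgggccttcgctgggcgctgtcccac
Krt18 (chr15:102027966-102028245, plus strand): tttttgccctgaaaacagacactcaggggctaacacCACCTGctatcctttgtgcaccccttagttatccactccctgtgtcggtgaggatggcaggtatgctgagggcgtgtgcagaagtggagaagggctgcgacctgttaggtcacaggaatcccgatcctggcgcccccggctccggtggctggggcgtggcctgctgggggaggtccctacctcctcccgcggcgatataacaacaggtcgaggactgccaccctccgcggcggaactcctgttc
Krt42 (chr11:100269922-100270201, minus strand): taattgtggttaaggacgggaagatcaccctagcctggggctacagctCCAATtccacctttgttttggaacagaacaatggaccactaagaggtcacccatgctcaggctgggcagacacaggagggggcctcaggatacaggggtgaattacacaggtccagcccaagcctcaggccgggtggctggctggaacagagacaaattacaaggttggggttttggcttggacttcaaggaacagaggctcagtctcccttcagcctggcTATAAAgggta
Cldn4 (chr5:134946905-134947184, minus strand): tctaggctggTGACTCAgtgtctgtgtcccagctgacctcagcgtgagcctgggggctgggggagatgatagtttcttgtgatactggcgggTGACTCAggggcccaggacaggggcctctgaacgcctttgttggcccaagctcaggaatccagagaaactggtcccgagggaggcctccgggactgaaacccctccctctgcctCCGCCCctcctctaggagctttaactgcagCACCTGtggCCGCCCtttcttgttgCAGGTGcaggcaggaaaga
Cldn6 (chr17:23679115-23679394, plus strand): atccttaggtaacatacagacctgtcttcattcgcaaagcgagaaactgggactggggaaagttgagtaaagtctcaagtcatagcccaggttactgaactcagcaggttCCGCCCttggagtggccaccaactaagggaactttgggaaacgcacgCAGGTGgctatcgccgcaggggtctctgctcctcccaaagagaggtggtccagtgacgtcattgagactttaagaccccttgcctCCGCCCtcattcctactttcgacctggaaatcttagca

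The most frequent match was the E-box CAGGTG, present in 6 of the 8 genes with a promoter sequence (Krt7, Krt8, Krt18, Cldn4, Cldn6 and Cldn7). It was found in 19.1% of all 32851 RefSeq promoters searched over the same 280 bases. GGGCGG was in 5 of 8 against 34.7% of all, and CCAAT was in Krt42 alone, against 36.1%. TATAAA matched in Krt8 and Krt42, against 13.1% of all promoters. In Krt8 it lay at bases 250 to 255 of the window, directly at the annotated start, and there the match on one strand overlapped that on the other. In Krt42 it lay at bases 270 to 275. TGANTCA matched 2 times in Cldn4 and in no other member, against 7.46% of all. These matches describe the letters of the sequence only, and binding was not measured.

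In wild-type cells the 10 genes spanned a broad range of levels. Levels are compared between genes as CPM, that is counts scaled by library size, per kilobase of the longest principal transcript. In WT siGLO, Cldn4 stood at 62.3 ± 8.43 (SD, n = 3), Krt8 at 50.4 ± 11.4, Cldn6 at 42.3 ± 3.88 and Krt18 at 36.2 ± 8.69, and each of these overlapped the next in its replicates. Cldn7 (19.1 ± 5.41) and Krt42 (11.1 ± 1.64) followed, each apart from its neighbours in the order. Krt19 (7.30 ± 2.22) and Cldn3 (5.96 ± 0.457) overlapped, and Krt7 (1.27 ± 0.423) and Cldn9 (1.24 ± 0.189) closed the order, also overlapping. Thus the pair Krt8 and Krt18 and the claudins Cldn4 and Cldn6 made up most of either family in unperturbed stem cells. Krt8 supplied 47.3% ± 0.621 of the summed level of the 5 keratins, and Krt18 33.9% ± 0.936. Cldn4 supplied 47.6% ± 0.680 of the 5 claudins, and Cldn6 32.5% ± 2.91.

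The libraries held 14982560 to 19070126 counts on genes, with a median of 17700059. The pluripotency markers identified the cells, with a summed normalized count of 101792 to 110468 over 10 genes in WT siGLO and none of the 10 at 0. The Stag1 transcript fell by 2.28 on the log2 scale in WT siStag1 and by 1.63 in Stag2-KO siStag1, and Stag2 fell by 1.75 in Stag2-KO siGLO, all against WT siGLO (edgeR, adjusted p at most 4.34e-07 for these and for Stag2 in Stag2-KO siStag1). Stag1 stood at 2023 ± 300.2 normalized counts in Stag1-KO siGLO and at 2146 ± 138 in WT siGLO. That clone carries an in-frame deletion, so its transcript count does not check the label.

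In the Stag1 knockout every one of the 10 genes was higher. Against WT siGLO, 10 of 10 were higher at an adjusted p under 0.1 (edgeR quasi-likelihood test, Benjamini-Hochberg adjustment over all genes tested), where 10.1% of all genes tested were higher and 20% changed in either direction. The keratins rose between 1.70-fold and 5.38-fold and the claudins between 1.75-fold and 2.21-fold. The median log2 fold change was 1.68 for the keratins and 0.95 for the claudins, beside -0.01 for all genes tested. The replicates did not overlap for any of the 10, as for 15.7% of all genes in this direction. In 8 of the 10, the 3 Stag1-KO siGLO libraries lay above all of the other 12 libraries, which was true of 4.11% of all genes. The exceptions were Cldn7 and Cldn9. Values below are normalized counts, scaled by TMM (trimmed mean of M values) to a common depth and given in the order of replicates 1, 2 and 3.

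**Figure D1:**
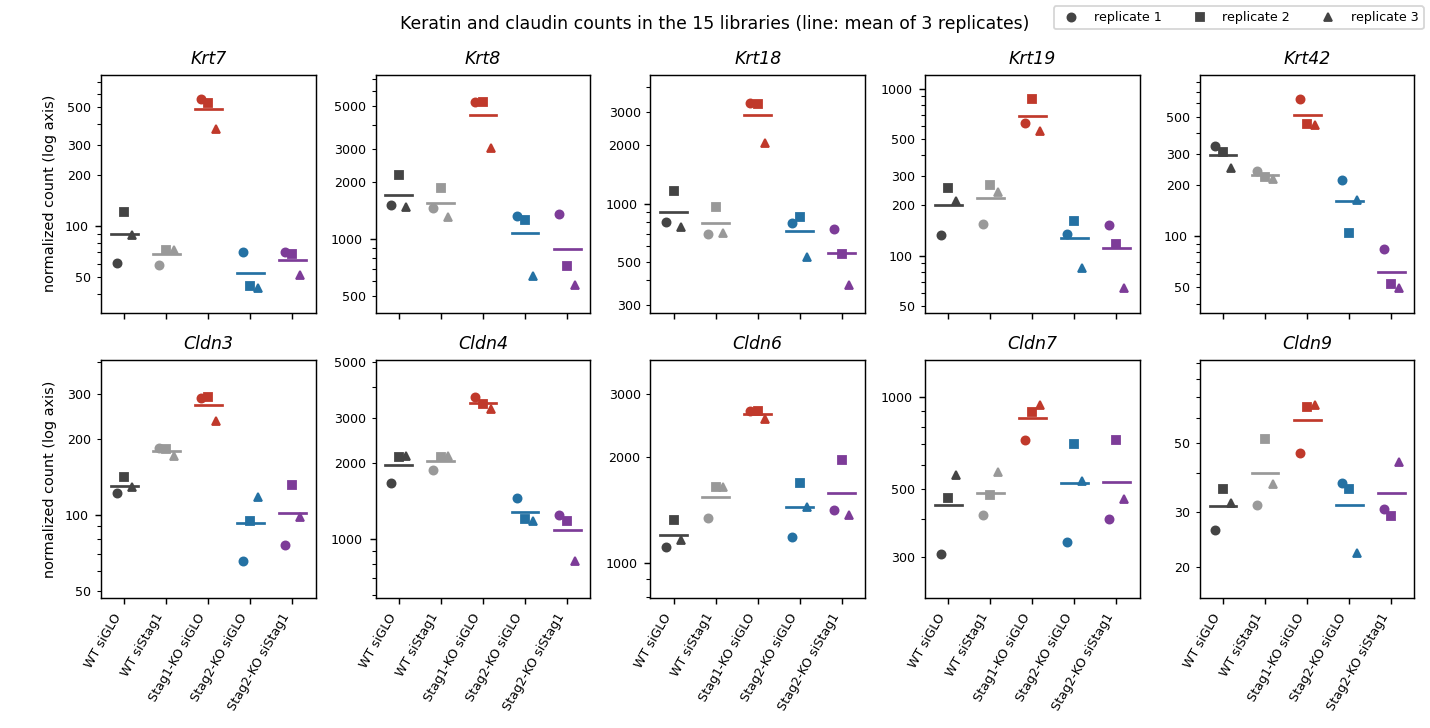
Normalized count (log axis) of each keratin and claudin in the 15 libraries, with the 5 conditions along the horizontal axis, 1 symbol per replicate and a line at the mean. The 3 Stag1-KO siGLO libraries stand highest in 8 of the 10 panels, and Krt42 is lowest in Stag2-KO siStag1, at 49.6 to 83.8.

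Among the type II keratins, Krt7 gave 60.8, 121 and 89.0 in WT siGLO and 554, 531 and 372 in Stag1-KO siGLO. Its lowest knockout library was above its highest control library, and the log2 fold change was 2.43 ± 0.24 (SE, adjusted p = 9.32e-06), the largest of the 10. Krt8 counted 1513, 2166 and 1473 in WT siGLO against 5256, 5248 and 3008 in Stag1-KO siGLO. It rose by 1.39 ± 0.31 on the log2 scale (adjusted p = 0.00621), with replicate 3 well below the other knockout replicates but still above each control.

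Krt18, the type I partner of Krt8, moved with it. It gave 801, 1156 and 761 in WT siGLO and 3331, 3277 and 2072 in Stag1-KO siGLO, a rise of 1.68 ± 0.25 (log2, adjusted p = 0.000255). Krt19, which unlike other keratins nearly lacks a tail domain, counted 134, 253 and 214 in WT siGLO and 624, 867 and 554 in Stag1-KO siGLO. Its log2 fold change was 1.77 ± 0.30 (adjusted p = 0.000944). Krt42 rose least of the keratins, from 335, 312 and 249.7 to 629.9, 449.7 and 446, a log2 fold change of 0.77 ± 0.22 (adjusted p = 0.0312). Its call was lost without WT siGLO replicate 3 or without Stag1-KO siGLO replicate 1, with an adjusted p of up to 0.160.

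The claudins rose by a narrower range. Cldn6 counted 1109, 1319 and 1159 in WT siGLO and 2686, 2685 and 2561 in Stag1-KO siGLO, the tightest knockout group among the 10 genes, and rose by 1.15 ± 0.14 (log2, adjusted p = 6.29e-05). Cldn4, which like Cldn3 is a receptor of the Clostridium perfringens enterotoxin, gave 1662, 2116 and 2132 against 3653, 3414 and 3273. It rose by 0.81 ± 0.14 (adjusted p = 0.000910). Cldn3 rose from 122, 141 and 129 to 289, 292 and 234, a log2 fold change of 1.06 ± 0.20 (adjusted p = 0.00226).

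The remaining claudins were called with less room. Cldn7 gave 308, 468 and 556 in WT siGLO and 722, 894 and 946 in Stag1-KO siGLO (log2 fold change 0.95 ± 0.26, adjusted p = 0.0232). Cldn9, the least abundant member, gave 26.2, 35.6 and 31.9 against 46.3, 65.2 and 66.0 (0.92 ± 0.28, adjusted p = 0.0400). Without WT siGLO replicate 1 the adjusted p reached 0.102 for Cldn7, and that of Cldn9 was also over 0.1, and 3 of the 5 claudins were then called. Cldn9 lost its call without Stag1-KO siGLO replicate 2 or 3 as well, with an adjusted p of up to 0.134.

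Knockdown of Stag1 in wild-type cells left none of the 10 past the threshold. In WT siStag1 against WT siGLO the 10 log2 fold changes ran from -0.40 to 0.45 (edgeR, 0 of 10 called, 0.248% of all genes tested called). DESeq2 also called 0 of 10, and 2 of 10 had an unadjusted p under 0.05. These were Cldn3, with 184, 182 and 170.2 (log2 fold change 0.45 ± 0.21, adjusted p = 0.760), and Cldn6, with 1341, 1643 and 1637 (0.37 ± 0.14, adjusted p = 0.635). In both genes the 3 knockdown libraries lay above the 3 controls. Krt42 lay below them, at 241, 223 and 216 (-0.40 ± 0.23, adjusted p = 0.903). These 3 were the members without overlap, 2 of them higher, where 15.5% of all genes did not overlap.

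The other members in WT siStag1 were not set apart from the controls. Krt7 counted 59.4, 72.7 and 72.5, Krt8 1460.3, 1849 and 1312, and Krt18 698, 966 and 708. Krt19 counted 155, 267 and 239.9, Cldn4 1881, 2118 and 2121, and Cldn7 411, 480.1 and 569.8. Cldn9 counted 31.5, 51.5 and 36.8, with replicates 2 and 3 above its highest control. Each of these 7 overlapped its WT siGLO replicates.

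Set directly against WT siStag1, Stag1-KO siGLO was higher in 9 of the 10 genes, where 8.22% of all genes were higher and 16% were called in all. This comparison was added after the data were seen. The differences were 2.82 ± 0.25 for Krt7, 1.87 ± 0.25 for Krt18, 1.62 ± 0.30 for Krt19, 1.55 ± 0.31 for Krt8 and 1.17 ± 0.23 for Krt42 (log2, edgeR adjusted p between 2.32e-06 and 0.00389). The claudin differences were smaller, from 0.60 ± 0.20 for Cldn3 (adjusted p = 0.0644) to 0.81 ± 0.26 for Cldn7 (adjusted p = 0.0567). Cldn9 differed by 0.56 ± 0.28 (adjusted p = 0.228) and was not called. Leaving out 1 library ended the call of Cldn3 in 5 of 6 fits (not without Stag1-KO siGLO replicate 3) and that of Cldn7 in 4 of 6 (not without Stag1-KO siGLO replicate 1 or WT siStag1 replicate 3). The genotype, the clone and the transfected siRNA all differ between these groups.

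In the Stag2 knockout 2 keratins and 1 claudin were lower. In Stag2-KO siGLO against WT siGLO, 3 of 10 genes were lower and 0 higher (edgeR), where 28.3% of all genes tested were called, 14.4% lower and 13.9% higher. Krt42 gave 214, 103 and 162, all below the 3 controls, and fell by 0.90 ± 0.23 on the log2 scale (adjusted p = 0.0125). Cldn4 gave 1451, 1198 and 1180.4, also below all controls (-0.63 ± 0.14, adjusted p = 0.00509). Krt7 gave 70.9, 44.2 and 43.3, with replicate 1 above the lowest control (-0.77 ± 0.26, adjusted p = 0.050). All 5 keratins had a negative log2 fold change, with a median of -0.68, while the median of the claudins was 0.02.

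Replicates with the same number deviated together in this comparison. With the replicate number as a block, 8 of 10 genes were called, 7 lower and 1 higher, where 39.4% of all genes were called. The added genes were Krt8 (-0.73, adjusted p = 0.00949), Krt19 (-0.66, adjusted p = 0.0615), Krt18 (-0.33, adjusted p = 0.0958) and Cldn3 (-0.50, adjusted p = 0.0605) on the lower side and Cldn6 (0.26, adjusted p = 0.0561) on the higher side, all on the log2 scale by edgeR. Without the block Krt8 counted 1317, 1263 and 638, a fall in each replicate number that did not pass the test (adjusted p = 0.133). Krt18 counted 792, 855 and 528, and Krt19 135, 162 and 84.5. Both overlapped their controls.

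Among the claudins of Stag2-KO siGLO, Cldn3 counted 65.6, 94.8 and 117 and lay below all controls (-0.50 ± 0.21, adjusted p = 0.112). Cldn6 counted 1183, 1685 and 1439, Cldn7 336, 700.4 and 533, and Cldn9 37.0, 35.6 and 22.2. These 3 overlapped the controls, with log2 fold changes of 0.26 ± 0.14, 0.24 ± 0.26 and 0.02 ± 0.30. In 4 of the 10 genes the replicates lay below the controls without overlap, where 18.5% of all genes did. The count of members called was 5 without Stag2-KO siGLO replicate 1, with 4 of them lower. It was 2 without WT siGLO replicate 2, WT siGLO replicate 3 or Stag2-KO siGLO replicate 2, and Krt7 was then not called, nor was it without Stag2-KO siGLO replicate 3 or with only the libraries compared (adjusted p = 0.136). DESeq2 called 4 members lower, with Cldn3 added (adjusted p = 0.0856).

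The single knockouts were also compared with each other. In Stag1-KO siGLO against Stag2-KO siGLO, 10 of 10 genes were higher, where 12.7% of all genes were higher and 25.7% were called in all (edgeR). Krt7 differed most, by 3.20 ± 0.26 on the log2 scale or 9.17-fold, followed by Krt19 (2.42 ± 0.32), Krt8 (2.07 ± 0.32), Krt18 (2.00 ± 0.25) and Krt42 (1.67 ± 0.23). The claudins differed from 0.71 ± 0.26 for Cldn7 (adjusted p = 0.0697) to 1.55 ± 0.21 for Cldn3 (adjusted p = 0.000123). No member overlapped between these groups, as for 15.7% of all genes in this direction. Cldn7 lost its call without Stag1-KO siGLO replicate 2 or 3 or Stag2-KO siGLO replicate 1 or 3, and Cldn9 without Stag1-KO siGLO replicate 2 or Stag2-KO siGLO replicate 3.

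**Figure D2:**
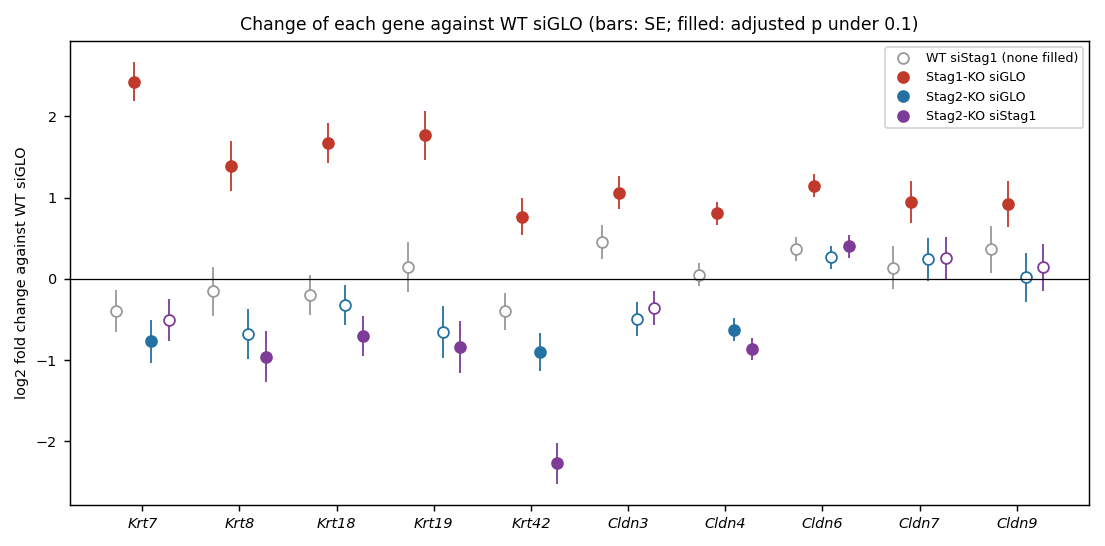
Log2 fold change of each gene against WT siGLO in the other 4 conditions (vertical axis), with bars of 1 SE and filled points for an adjusted p under 0.1. All Stag1-KO siGLO points are filled and above 0, the WT siStag1 points are all open, and Krt42 in Stag2-KO siStag1 reaches -2.27.

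With both STAG transcripts reduced, Krt42 fell most. In Stag2-KO siStag1 it counted 83.8, 52.0 and 49.6, against 335, 312 and 249.7 in WT siGLO. The fall was 2.27 ± 0.25 on the log2 scale, or 4.82-fold (edgeR, adjusted p = 5.53e-06). In all, 5 of 10 genes were lower and 1 was higher, where 43.9% of all genes tested were called, 21.3% lower and 22.6% higher. Krt8 (1358, 719 and 572) fell by 0.96 ± 0.31 (adjusted p = 0.0243) and Krt18 (736, 549 and 380.2) by 0.71 ± 0.25 (adjusted p = 0.0362). Neither overlapped its controls, although replicate 1 of each lay just under them.

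Krt19 (153, 118 and 63.7) was also called lower (-0.84 ± 0.32, adjusted p = 0.0494), with replicate 1 inside the control range. Krt7 (70.0, 68.7 and 51.6) was not called (-0.51 ± 0.26, adjusted p = 0.140). Cldn4 (1249.8, 1181 and 816) fell by 0.86 ± 0.14 (adjusted p = 0.000182). Cldn6 was the member that rose, at 1407, 1961 and 1363, above all 3 controls (0.40 ± 0.14, adjusted p = 0.0379). Cldn3 (75.9, 131 and 98.1), Cldn7 (398, 723 and 463) and Cldn9 (30.6, 29.1 and 43.5) overlapped the controls and were not called.

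These counts leaned on single libraries. Without WT siGLO replicate 2 or without Stag2-KO siStag1 replicate 3, 2 of the 10 genes were lower and 1 was higher, and Krt8, Krt18 and Krt19 were then not called. Without WT siGLO replicate 1 or without Stag2-KO siStag1 replicate 2, 6 were lower and 0 higher. Cldn6 was not called in these last fits, nor without WT siGLO replicate 3, where 4 genes were lower. Krt42 and Cldn4 were called in each of the 6 fits that left out 1 library.

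Within Stag2 knockout cells, Krt42 was the one member called after siStag1. In Stag2-KO siStag1 against Stag2-KO siGLO it fell by 1.37 ± 0.26 on the log2 scale (edgeR, adjusted p = 0.00598), and its replicates did not overlap (49.6 to 83.8 against 103 to 214). Of the 10 genes 1 was lower, as were 3.39% of all genes tested, with 6.37% called in either direction. With only these 6 libraries in the fit, the adjusted p of Krt42 was 0.134 at a log2 fold change of -1.37. The other 9 ranged from -0.38 ± 0.25 (Krt18) to 0.26 ± 0.27 (Krt7).

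Whether siStag1 acted differently in the genotypes was tested as the difference of its effects. None of the 10 passed (edgeR, 0 of 10, where 0.159% of all genes did), with 1 of 10 at an unadjusted p under 0.05 and 0 of 10 called by DESeq2. Krt42 had the largest difference, -0.96 ± 0.34 (log2, adjusted p = 0.616). It was -0.40 in wild-type cells and -1.37 in Stag2 knockout cells. The WT siGLO libraries are shared by the 4 comparisons against them, so the changes of a gene in those comparisons are not independent.

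Ratios between members were also compared. Per kilobase, the ratio of Krt8 to Krt18 was 1.39 ± 0.0242 (SD, n = 3) in WT siGLO and 1.43 ± 0.0912 in WT siStag1. It was 1.13 ± 0.0592 in Stag1-KO siGLO, 1.06 ± 0.168 in Stag2-KO siGLO and 1.14 ± 0.199 in Stag2-KO siStag1. All 3 groups with a knockout lay below every WT siGLO replicate, although the pair rose in Stag1-KO siGLO and fell in Stag2-KO siStag1. An exact two-sided permutation test gave p = 0.1 for each of these 3, the smallest value that 3 against 3 allows, and 0.133 after adjustment over the 4 ratios. For WT siStag1 the same exact test gave p = 0.7.

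The ratio of Cldn6 to Cldn4, chosen after its values were seen and so given here with no test, ran from 0.684 ± 0.0702 in WT siGLO to 0.860 ± 0.0318 in Stag1-KO siGLO and 0.844 ± 0.0391 in WT siStag1. It was 1.28 ± 0.338 in Stag2-KO siGLO and 1.66 ± 0.349 in Stag2-KO siStag1. Every library of the other 4 conditions lay above the WT siGLO libraries. Cldn4 supplied 29.0% ± 5.66 of the summed claudin level in Stag2-KO siStag1, and Cldn6 47.0% ± 1.85. Among the keratins, the share of Krt42 was 4.27% ± 0.637 there, against 10.7% ± 2.25 in WT siGLO. The share of Krt7 was 2.30% ± 0.133 in Stag1-KO siGLO, against 1.18% ± 0.245.

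**Figure D3:**
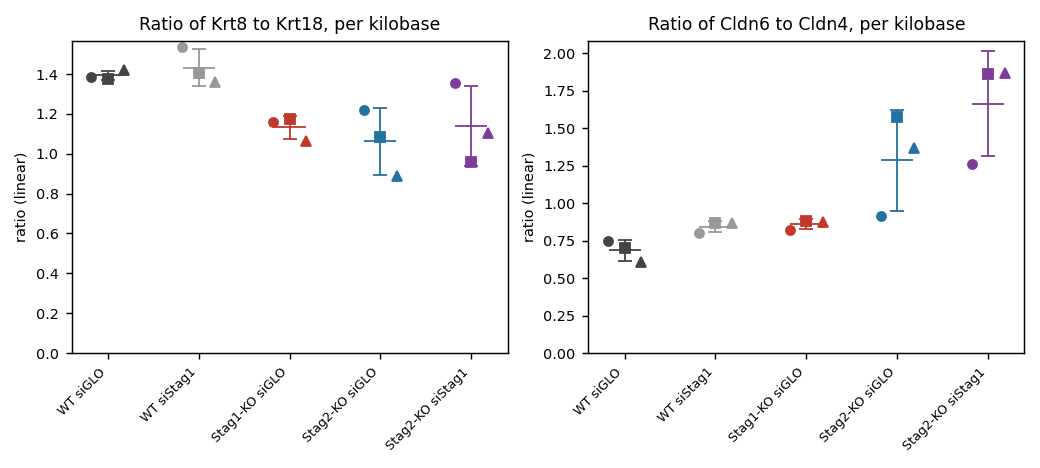
Ratio of Krt8 to Krt18 and of Cldn6 to Cldn4 (levels per kilobase, linear axes from 0) in the 5 conditions, with 1 symbol per replicate and the mean and SD. The Krt8 to Krt18 ratio is lowest in Stag2-KO siGLO, at 1.06, and the Cldn6 to Cldn4 ratio is highest in Stag2-KO siStag1, at 1.66.

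Part of the spread followed the replicate number rather than the condition. Krt8 was lowest in replicate 3 in 5 of 5 conditions and Krt42 was highest in replicate 1 in 5 of 5. Cldn7 was lowest in replicate 1 in 5 of 5. What the numbers stand for is not given in the sources used here.

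The genes around the members were counted within 500 kb in Stag1-KO siGLO, where 10.1% of all genes tested were higher. Around Krt8, 1 of 19 tested genes was higher and 3 were lower, with a median log2 fold change of 0.01. Around Krt7, 1 of 8 was higher, and around Cldn4, 3 of 24 were, with a median of 0.20. Around Krt19, 4 of 17 were higher and 1 was lower (median -0.01), and around Krt42, 4 of 22 and 1 (median -0.09). The windows of Krt19 and Krt42 overlap, and the genes called in them were the same. Around Cldn7, 6 of 50 were higher and 1 was lower (median 0.03). Around Cldn6, 5 of 24 were higher, with a median of 0.04. The nearest of these 5 were Ccdc64b (1.23), which codes for a coiled-coil protein, and Mmp25 (1.23), a membrane-anchored metalloproteinase. The 10 members themselves were not counted as neighbours.

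In the Stag2-KO groups the genes around Krt42 included other keratins. Within 500 kb of Krt42, 9 of 22 tested genes were lower and 0 higher in Stag2-KO siGLO (median log2 fold change -0.36), where 14.4% of all genes were lower. In Stag2-KO siStag1 12 were lower and 0 higher (median -0.40), where 21.3% of all genes were lower. Around the other members in Stag2-KO siGLO, 7 of 17 were lower and 0 higher for Krt19, 3 of 8 and 0 for Krt7, and 5 of 19 and 1 for Krt8. The 7 around Krt19 were all among the 9 around Krt42. Around Cldn4 0 of 24 were lower and 4 higher, around Cldn6 1 of 24 was lower and 5 higher, and around Cldn7 7 of 50 were lower and 10 higher. The nearest, Krt17, a type I keratin induced in stressed and wounded skin, starts at -8.84 kb from the start of Krt42, the minus sign marking lower coordinates. Krt17 counted 398, 434 and 295 in WT siGLO, 861, 678 and 539 in Stag1-KO siGLO, 159, 109.9 and 120.4 in Stag2-KO siGLO and 61.1, 61.4 and 35.4 in Stag2-KO siStag1. It thus rose by 0.88 in Stag1-KO siGLO and fell by 1.53 and 2.83 in the Stag2-KO groups (log2 fold change, adjusted p = 0.0101 at most). In WT siStag1 it counted 283, 255 and 198, below every WT siGLO library but not called. Krt16, its neighbour, counted 16.8 to 18.4 in WT siGLO, 27.6, 18.5 and 9.04 in Stag1-KO siGLO, 6.77 to 7.36 in WT siStag1 (called in neither), and 1.01 to 4.23 over both Stag2-KO groups. Krt42 and Krt17 share an exact stretch of at most 53 bases, shorter than the 150 bp reads, so whole reads of one would not match the other.

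**Figure D4:**
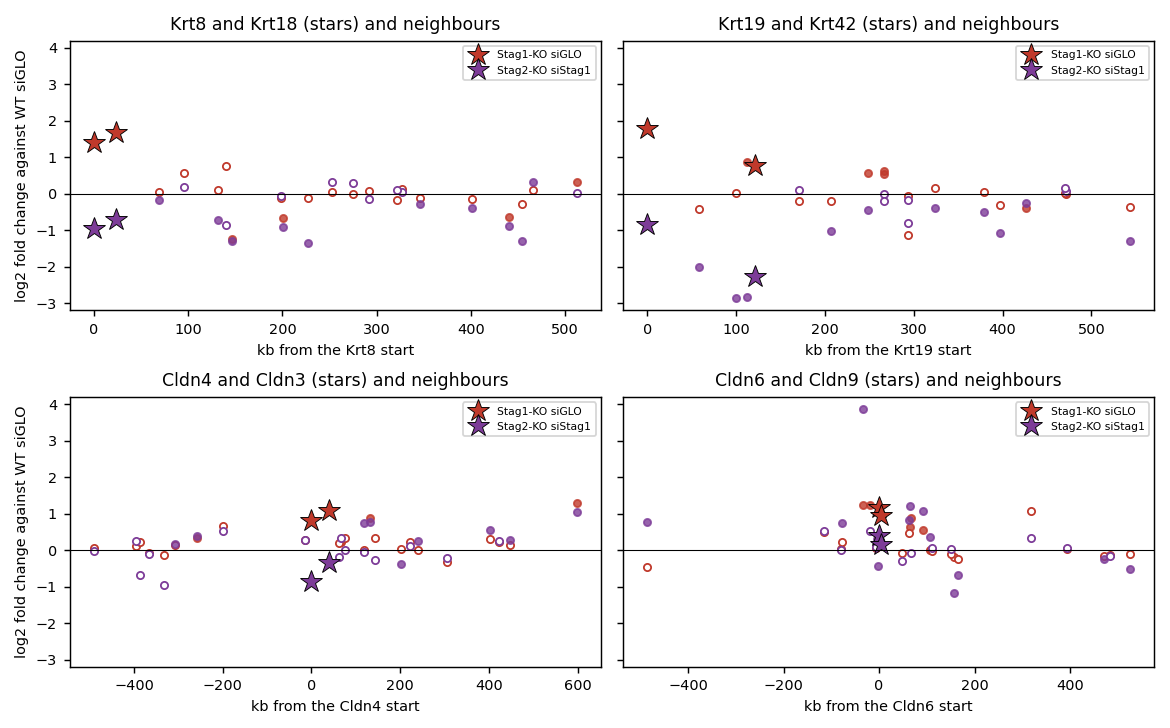
Log2 fold change against WT siGLO of tested genes within 500 kb of 4 pairs of members, by distance in kb from the start of the first named gene. Stars are members, circles are neighbours, filled where the adjusted p is under 0.1, red for Stag1-KO siGLO and purple for Stag2-KO siStag1. The neighbours of Krt8 scatter around a median of 0.01 in Stag1-KO siGLO, and Krt17, the circle nearest Krt42, lies at -2.83 in Stag2-KO siStag1.

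Among the other keratins of the table, 6 of 43 had enough counts to be tested. In Stag1-KO siGLO 3 of these 6 were higher (Krt12, Krt17 and Krt20) and 0 lower, where 10.1% of all genes were higher. Krt20, a keratin of intestinal epithelium and of urothelium, counted 18.7, 11.2 and 21.3 in WT siGLO and 66.9, 88.6 and 56.0 in Stag1-KO siGLO. In WT siStag1 0 of the 6 were called, or 1 lower with the replicate block, where 0.248% and 1.63% of all genes were called. Of the 20 other claudins 5 were tested, and 0 were called in Stag1-KO siGLO by edgeR, or 1 lower with the replicate block or without WT siGLO replicate 3, with a median log2 fold change of -0.56. In Stag2-KO siStag1 3 of these 5 were lower (Cldn5, Cldn19 and Cldn20), where 21.3% of all genes were lower. Each averaged under 50 normalized counts over both groups. Without Stag2-KO siStag1 replicate 1 the count was 2 higher and 1 lower. Krt12, Krt16, Krt20 and these claudins fall outside the rule for naming genes of a list and were named after their values were seen.

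The partners of the claudins in the tight junction were counted next. Of 18 listed genes 10 were higher and 1 was lower in Stag1-KO siGLO, where 20% of all genes were called (median log2 fold change 0.52, beside -0.01 for all genes). Marveld3, a tight junction membrane protein, rose by 1.43 and Inadl, a scaffold of the junction, by 1.06. Jam2, a junctional adhesion molecule, fell by 0.60. In Stag2-KO siGLO 7 were higher and 2 lower (median 0.08), where 28.3% of all genes were called. In Stag2-KO siStag1 8 were higher and 1 was lower (median 0.04), where 43.9% of all genes were called. Marveld3 rose there by 1.30 and 1.46, and Jam2 fell by 0.83 and 2.05. The count of 7 in Stag2-KO siGLO was 4 without WT siGLO replicate 3 or without Stag2-KO siGLO replicate 2. With the replicate block, 11 were higher and 4 lower in Stag1-KO siGLO, and 7 were higher and 5 lower in Stag2-KO siGLO.

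Keratin filaments attach to desmosomes. Of 11 tested desmosome and plakin genes, 8 were higher and 1 was lower in Stag1-KO siGLO (median 0.53), where 20% of all genes were called, and 5 were higher without WT siGLO replicate 1. Dsc2, a desmosomal cadherin, rose by 1.19, and Ppl (periplakin), which links keratin filaments to the cell membrane, by 0.80. Dsg2, the partner cadherin, fell by 0.98. In Stag2-KO siGLO 0 were higher and 3 lower (median -0.24), a share near the 28.3% of all genes called, with Dsg2 at -1.48 and Evpl (envoplakin) at -0.44. In Stag2-KO siStag1 1 was higher (Dsc2, 1.11) and 4 were lower, led by Dsg2 (-2.02) and Plec (-0.49), the plakin plectin, a share near the 43.9% of all genes called. Tested directly, Stag1-KO siGLO was higher than Stag2-KO siGLO in 10 of the 11, as in 12.7% of all genes.

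Of 17 epithelial surface genes and regulators, 7 were higher and 0 lower in Stag1-KO siGLO (median 0.33), 4 higher and 1 lower without WT siGLO replicate 1, and 9 higher and 2 lower with the replicate block. Grhl2, a transcription factor of epithelial genes including claudins, rose by 1.08. Of all genes, 20% were called there. In Stag2-KO siStag1 3 were higher and 6 lower, where 43.9% of all genes were called. Klf4 (-2.15) and Klf5 (-1.84), factors of both pluripotent and epithelial cells, fell most, while Esrp1 (1.03), an epithelial splicing regulator, and Epcam (0.72) rose. In Stag2-KO siGLO 2 were higher and 4 lower, where 28.3% of all genes were called, with Esrp1 at 0.81, Epcam at 0.61, Elf3 at -1.18 and Klf4 at -0.69.

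The other intermediate filament genes were called in both directions. Of 10, 2 were higher and 2 lower in Stag1-KO siGLO, 3 and 3 in Stag2-KO siGLO, and 4 and 3 in Stag2-KO siStag1. The shares of all genes called in these groups were 20%, 28.3% and 43.9%. Vim (vimentin), the filament of mesenchymal cells, fell by 1.04 in Stag1-KO siGLO and rose by 0.71 in Stag2-KO siGLO and by 0.77 in Stag2-KO siStag1. Nes (nestin), a filament of neural progenitors, rose by 1.15 in Stag2-KO siGLO and by 1.74 in Stag2-KO siStag1. Des (desmin) fell by 1.11 and 0.97. Thus Vim moved opposite to Krt8 and Krt18 in the Stag1-KO and the Stag2-KO siStag1 cells. The counts of 2 and 2 in Stag1-KO siGLO fell to 0 higher and 1 lower without WT siGLO replicate 2 or without Stag1-KO siGLO replicate 1. With the replicate block they were 4 and 2, and in Stag2-KO siGLO the block moved 3 higher and 3 lower to 3 and 5.

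**Figure D5:**
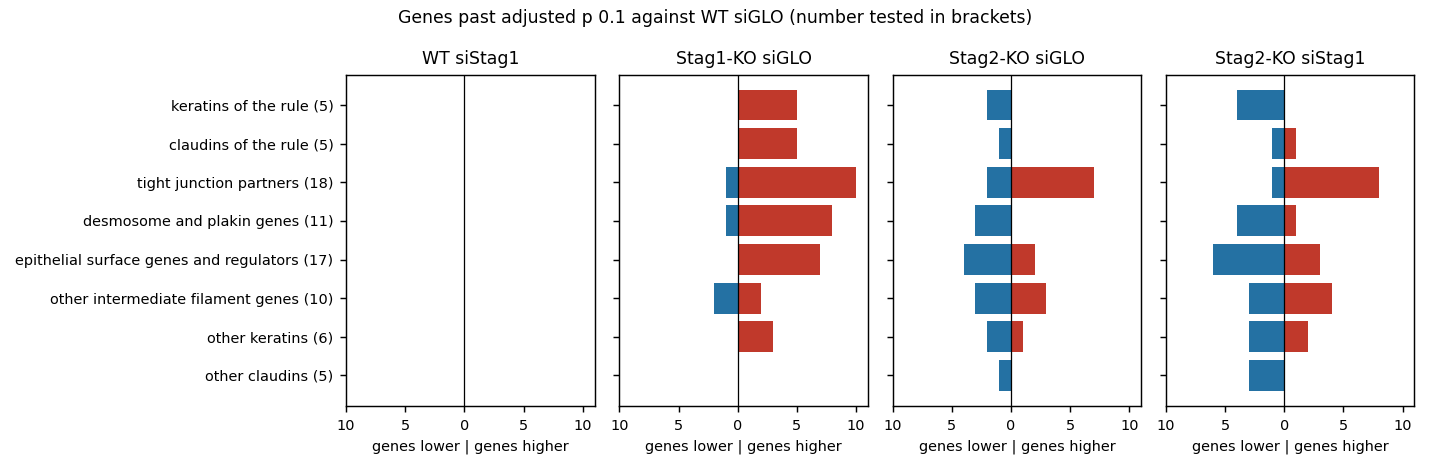
Number of genes past an adjusted p of 0.1 against WT siGLO, lower to the left and higher to the right of 0, for each list (number tested in brackets) in 4 conditions. The fit drawn has no replicate block. The 5 keratins and 5 claudins are all higher in Stag1-KO siGLO, and no gene of the 8 lists drawn is called in WT siStag1. With the block, 1 tight junction partner and 1 other keratin were lower in WT siStag1, and 1 epithelial surface gene or regulator was higher and 1 lower.

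Markers of other cell types were summed in each condition. The 10 markers of primitive and visceral endoderm, cells that also hold Krt8 and Krt18, summed to 4155 to 4504 normalized counts in WT siGLO and to 341 to 550.2 in Stag1-KO siGLO, where the keratins were highest. They summed to 741 to 1213 in Stag2-KO siGLO and to 899 to 1168 in Stag2-KO siStag1. All 8 tested were lower in Stag1-KO siGLO, Stag2-KO siGLO and Stag2-KO siStag1, where 9.93%, 14.4% and 21.3% of all genes were lower. Afp, at 0 in Stag1-KO siGLO, averaged 1.66 in WT siGLO. The 9 trophoblast markers summed to 1843 to 2319 in WT siGLO, 1708 to 1994 in Stag1-KO siGLO, 1035 to 1179 in Stag2-KO siGLO and 528 to 673 in Stag2-KO siStag1. In Stag1-KO siGLO 2 of the 8 tested were higher, Hand1 and Cdx2, and 1 was lower, Tead4, where 20% of all genes were called. Only 1 was higher without any 1 of the WT siGLO replicates or without Stag1-KO siGLO replicate 1, and 0 were lower without WT siGLO replicate 2 or 3 or Stag1-KO siGLO replicate 3. Of the same 8, 5 were lower and 0 higher in Stag2-KO siGLO and in Stag2-KO siStag1, where 28.3% and 43.9% of all genes were called. In Stag2-KO siGLO 3 were lower without WT siGLO replicate 3 or without Stag2-KO siGLO replicate 2 or 3. In WT siStag1 the endoderm sum was 4026 to 4490 and the trophoblast sum 1559 to 1649.

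The surface ectoderm and epidermis list, which includes Krt17, summed to 375 to 506 in WT siGLO, 615 to 954 in Stag1-KO siGLO and 156 to 175 in Stag2-KO siStag1. Krt17 made up most of it, with a mean of 376 in WT siGLO and 693 in Stag1-KO siGLO. It was the 1 gene called of 4 tested in Stag1-KO siGLO, where 20% of all genes were called. Trp63, the defining factor of epidermis, averaged under 1 normalized count in every condition. Fibroblast markers summed to 381 to 647 in WT siGLO and 517 to 688 in Stag1-KO siGLO, with 0 of 5 tested called. They summed to 483 to 730.0 in Stag2-KO siGLO and 576 to 621 in Stag2-KO siStag1, where Col3a1 was higher in both (2.10 and 1.98, log2) and Twist1 in the latter (1.04). The call of Col3a1 in Stag2-KO siGLO was lost without any 1 of the WT siGLO replicates. Markers of the streak and mesoderm summed to 65.4 to 81.3 in WT siGLO and 65.9 to 107 in Stag1-KO siGLO, with 0 of 5 called. They summed to 119.6 to 327 in Stag2-KO siGLO and 81.8 to 83.2 in Stag2-KO siStag1, above every WT siGLO library. The gene T (brachyury), a factor of the primitive streak, was higher in both, by 3.80 (adjusted p = 0.000521) and 2.02 (adjusted p = 0.0210). It was the 1 gene called of 5 tested in each, where 28.3% and 43.9% of all genes were called. T averaged 9.10 in WT siGLO, 128 in Stag2-KO siGLO and 37.3 in Stag2-KO siStag1. The median log2 fold change of the 5 was 0.80 and -0.05. The pluripotency sum lay below every WT siGLO library in all 4 other conditions. It was 88113 to 98148 in Stag1-KO siGLO and 94606 to 95426 in WT siStag1. It was 82928 to 100087 in Stag2-KO siGLO and 58972 to 75927 in Stag2-KO siStag1. Of the 10 genes, 1 was higher and 2 lower in Stag1-KO siGLO, where 20% of all genes were called. Counts were 0 and 1 in WT siStag1 (0.248%), 2 and 4 in Stag2-KO siGLO (28.3%) and 2 and 7 in Stag2-KO siStag1 (43.9%). When 1 library was left out, at most 1 was lower in Stag1-KO siGLO and 0 in WT siStag1. The part of these cell types in the keratin and claudin values was not tested, and in bulk RNA fewer cells of a type and less RNA per cell cannot be told apart.

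Across the 15 libraries, keratins followed each other more closely than claudins did. Pearson correlations of log2 normalized counts between keratin pairs ran from 0.70 to 0.97 (median 0.90) and between claudin pairs from 0.47 to 0.87 (median 0.63), with 0.19 to 0.95 between a keratin and a claudin. These are descriptions over libraries that share conditions and replicate numbers. The tested gene most like Krt18 was Krt8 (0.97). For Krt8 it was Wnt7b (0.99), followed by Csrp1 (0.98) and AU015836 (0.98), and for Krt19 it was Pkp2 (0.98), the desmosomal plakophilin. Krt42 was closest to Ppap2a (0.99), Krt17 (0.98) and Mib2 (0.97), and Krt7 to Rhox6, Jph2 and Bmp8b (all 0.95). Cldn4 was closest to Arhgap8 (0.97), Dgka (0.97) and Rnf128 (0.97), and Cldn6 to Kcnk1 (0.94), Prss8 (0.94) and Lad1 (0.94). Cldn3 (Afap1l1, 0.94), Cldn7 (Cxxc5, 0.93) and Cldn9 (Rnf6, 0.85) had the weaker nearest genes.

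Some reads of these genes may be shared. Krt8 has an exact stretch of 299 bases in common with the pseudogene Krt8-ps, longer than a read, and no other member shares a stretch as long as the 150 bp read with any other gene. On the opposite strand Gm671 overlaps Krt7 by 1269 bp, Gm36026 overlaps Krt8 by 271 bp and Wbscr25 overlaps Cldn3 by 40 bp. Whether the counting used strand is not given in the sources used here, so reads of these overlaps cannot be assigned with certainty.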

How the data were processed

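Per the labels and the study's methods, polyA RNA of v6.5 mouse embryonic stem cells was sequenced as 150 bp pairs, and the submitters' processing notes name STAR, DESeq2 and mm10. The authors deposited raw counts per gene for each of the 15 libraries, with no normalization. The counting tool, its annotation and its use of strand are not given in the sources used here. The 4 summary rows of each file, 19.8% to 23.4% of its counts, were left out. The members and gene lists were chosen with earlier results of these data known.

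Genes were kept by filterByExpr (minimum count 10, minimum total 15), scaled by TMM and fitted in edgeR 4.0.16 (R 4.3.3) with 1 coefficient per condition over all 15 libraries. Two-sided quasi-likelihood tests were adjusted by Benjamini-Hochberg over 14508 genes and called under 0.1. Normalized counts were scaled to 17409359 counts. Levels per kilobase used the longest principal transcript of GENCODE M21, in which 21777 of 23412 symbols matched directly and 1275 by an older symbol. On simulated data the fit recovered 155 of 197 genes changed 2-fold in Stag1-KO siGLO and called 16 of 14110 unchanged genes.

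All 10 members were named. From each other list up to 2 called genes in each direction, averaging 50 normalized counts or more, were named, and the 3 most correlated genes were drawn from 11528 genes with that mean. Of the markers, Cdx2, Col3a1 and, in Stag2-KO siStag1, T averaged under 50 and were named outside this rule. The value of 1 listed gene is not reported here. Same-numbered libraries deviated together in 27 of 30 pairs of conditions and numbers (r over 0.1, mean 0.30), against 8 of 60 pairs with different numbers. The numbers were judged to pair the libraries where every pair of a comparison passed 0.1. This failed for Stag2-KO siStag1 against WT siGLO and for the difference between siStag1 effects. The main fit had no block in any comparison, so calls are unpaired unless the block is named. The alternatives were DESeq2 1.42.0, its size factors, library size alone, other count filters, only the libraries compared, a threshold of 0.05, the replicate block and leaving out each library. The comparison of Stag1-KO siGLO with WT siStag1 was chosen after seeing the data.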

Additional observations from a re-analysis of the deposited data

How the results depend on the processing

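Of 1180 log2 fold changes of the members under an alternative, 1094 kept their sign and their side of the threshold, 41 lost a call, 13 gained one and 32 changed sign, all 32 in changes that were not called. With the replicate number as a block, 8 members were called in Stag2-KO siGLO against WT siGLO, against 3 without it. In Stag2-KO siStag1 against WT siGLO, where the numbers did not pair the libraries throughout, the block gave 7 members against 6, and in the other comparisons it left the number of members called as it was. With only the libraries compared, 0 members were called in Stag2-KO siStag1 against Stag2-KO siGLO. Leaving out 1 library gave 2 to 5 members in Stag2-KO siGLO and 3 to 6 in Stag2-KO siStag1, both against WT siGLO. There are 3 libraries per condition and 1 clone per knockout, and the causes of these shifts were not tested.

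The sign changes were as follows, as ranges of log2 fold changes over the fits that left out 1 library. In WT siStag1 against WT siGLO, Krt8 ran from -0.31 to 0.046, Krt18 from -0.37 to 0.020, Krt19 from -0.077 to 0.35, Cldn4 from -0.058 to 0.11 and Cldn7 from -0.070 to 0.33. Against the same controls, Cldn7 ran from -0.029 to 0.48 and Cldn9 from -0.11 to 0.22 in Stag2-KO siGLO, and Cldn7 from -0.042 to 0.44 and Cldn9 from -0.063 to 0.24 in Stag2-KO siStag1. In Stag2-KO siStag1 against Stag2-KO siGLO, Krt19 ran from -0.49 to 0.090, Cldn3 from -0.090 to 0.34, Cldn6 from -0.052 to 0.27, Cldn7 from -0.28 to 0.28 and Cldn9 from -0.081 to 0.25. There Cldn7 was also -0.0054 with no expression filter. In the difference between siStag1 effects, Krt8 ran from -0.58 to 0.11, Krt18 from -0.45 to 0.021 and Cldn7 from -0.42 to 0.14.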
